A study of Mus musculus with 12 samples.

Results

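Chemokines are small secreted proteins, and in a few cases membrane-tethered ones, that direct leukocytes along concentration gradients by way of G protein-coupled receptors. The chemokine genes described here are those whose symbol begins with Ccl, Cxcl, Ccr, Cxcr, Cx3cl, Cx3cr, Xcl or Xcr followed by a digit. The rule found 58 genes over both expression tables of the study, 39 ligands and 19 receptors. The table of Miz1 tumours holds 41 of them among 21751 genes and loci, and the table of Miz1(POZ) tumours holds 58 among 24054 genes. A mean of at least 1 per library, over all 6 libraries of a table, was required for testing, and 41 of 41 and 18 of 58 members met it. The lowest row mean of the deposited Miz1 table was 2.80, so all its members were bound to meet it.

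The ligands fall into groups by the leukocyte they attract. The ligands of Cxcr2 (Cxcl1, Cxcl2, Cxcl3 and Cxcl5) recruit neutrophils, Ccl2 recruits monocytes that carry Ccr2, and Ccl3, Ccl4 and Ccl5 recruit macrophages, T cells and NK cells. Cxcl9, Cxcl10 and Cxcl11 are interferon-induced ligands of Cxcr3 on effector T cells and NK cells, while Cxcl12, Ccl19 and Ccl21 act in homing and in the steady state. Inflammatory members are induced by TNF and interleukin 1 through NF-kB, and in liver they are made by hepatocytes, Kupffer cells, stellate cells and sinusoidal endothelium, whereas the receptors sit mainly on the incoming leukocytes.

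The study sequenced RNA from dissected liver tumours of C57BL/6 mice in 4 groups of 3 libraries. All 4 groups received the carcinogen diethylnitrosamine (DEN, 25 mg/kg, 2 weeks after birth) and then carbon tetrachloride (CCl4, 0.5 ml/kg) every week, and tumours were taken at 5 months of age. In the Miz1 table, tumours with floxed alleles of Zbtb17, the gene of the BTB/POZ zinc finger factor Miz1, and no Cre (Miz1fl/fl, AlbCre negative) stand against tumours with the same alleles and Cre (Miz1_delta_Hep, AlbCre positive). In the second table, Miz1(POZ)fl/fl tumours without Cre stand against Miz1(POZ)_delta_Hep tumours with Cre, where the floxed part encodes the POZ domain. Cre was driven by the albumin promoter, which is active in hepatocytes, so the floxed alleles of leukocytes and stroma in the tumours were not its target. The groups are called floxed and knockout below, and the labels do not say whether the replicates are tumours of separate mice, so p-values measure the spread between these libraries only. The series' title names NF-kB activity driven by TNF, a main inducer of inflammatory chemokines. In every sentence that follows, 3 values in a row are replicates 1, 2 and 3, and floxed values come before knockout values.

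The Miz1 table gives normalised reads, that is, reads divided by 1 factor per library, and whole reads could be recovered for 5 of its 6 libraries, with 30151743 to 76122969 reads in genes. The Miz1(POZ) table gives FPKM (fragments scaled by transcript length and by library), so its depth is unknown. Zbtb17 itself had 323, 306 and 302 normalised reads in floxed and 261, 271 and 267 in knockout tumours, lower in each knockout library than in any floxed one (log2 fold change -0.22 ± 0.14, moderated SE, n = 3 against 3). In the Miz1(POZ) table it had 2.03, 2.46 and 1.82 FPKM in floxed and 2.55, 2.60 and 1.95 in knockout tumours, and a value over the whole gene does not check the loss of the POZ exons. Hepatocyte markers were abundant in all libraries, with summed levels of 899923 to 2568150 normalised reads per kilobase of exon in floxed and 1458370 to 1627030 in knockout tumours of the Miz1 table, and 60189 to 92088 and 45088 to 79589 FPKM in the Miz1(POZ) table. In both tables the libraries of a group stood apart from each other. In the Miz1 table the replicate number took a median of 73.6% of a member's sum of squares and the genotype a median of 6.98%, against medians of 58.5% and 8.67% over all genes. In the Miz1(POZ) table these medians were 36.4% and 10.1% for the tested members, against 36.9% and 16.4% over all genes. The replicate number has more levels than the genotype, so its share is the larger one even without any effect.

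Most chemokine genes lie in tight genomic clusters, and 41 of the 57 members with a position in the GENCODE M21 annotation (GRCm38) have another member within 500000 bases. The neutrophil ligands Cxcl5, Cxcl3, Cxcl15, Cxcl1 and Cxcl2 share 147 kb at chr5:90759360-90905938. The Cxcr3 ligands Cxcl9, Cxcl10 and Cxcl11 share 44.1 kb at chr5:92321347-92365485, and Ccl5, Ccl9, Ccl6, Ccl3 and Ccl4 share 139 kb at chr11:83525778-83664683. The 250 bases before the start of 4 ligands are printed because they hold the letters of the NF-kB motif, and in Cxcl10 also those of the interferon-stimulated response element (ISRE), the routes by which TNF and interferons induce these ligands. Sequences are from RefSeq (GRCm38.p6), 5′ to 3′ in the direction of transcription, with motif matches in capitals.
Cxcl1: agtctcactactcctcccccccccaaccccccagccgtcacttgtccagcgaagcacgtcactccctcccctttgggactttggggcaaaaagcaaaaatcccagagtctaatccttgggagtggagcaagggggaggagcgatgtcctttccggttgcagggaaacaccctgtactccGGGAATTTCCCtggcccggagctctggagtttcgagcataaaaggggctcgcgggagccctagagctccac
Cxcl2: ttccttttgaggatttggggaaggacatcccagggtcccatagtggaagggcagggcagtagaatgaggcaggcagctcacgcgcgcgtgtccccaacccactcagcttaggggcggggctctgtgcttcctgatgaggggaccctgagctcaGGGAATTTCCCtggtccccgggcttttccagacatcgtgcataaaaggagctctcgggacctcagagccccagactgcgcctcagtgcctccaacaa
Cxcl3: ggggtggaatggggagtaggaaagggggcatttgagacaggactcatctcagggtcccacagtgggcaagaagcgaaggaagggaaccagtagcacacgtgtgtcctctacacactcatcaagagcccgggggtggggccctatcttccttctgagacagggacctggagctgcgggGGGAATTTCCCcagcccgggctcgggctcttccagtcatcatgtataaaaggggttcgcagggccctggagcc
Cxcl10: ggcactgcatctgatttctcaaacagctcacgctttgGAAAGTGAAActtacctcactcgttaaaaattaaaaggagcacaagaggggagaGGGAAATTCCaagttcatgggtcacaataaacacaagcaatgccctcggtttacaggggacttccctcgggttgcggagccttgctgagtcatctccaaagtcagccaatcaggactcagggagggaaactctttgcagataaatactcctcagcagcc
These windows lie at chr5:90890995-90891244 on the plus strand for Cxcl1, chr5:90903649-90903898 on the plus strand for Cxcl2, chr5:90785851-90786100 on the plus strand for Cxcl3 and chr5:92348890-92349139 on the minus strand for Cxcl10. Cxcl1, Cxcl2 and Cxcl3 hold the same 11-base run GGGAATTTCCC, which begins 71, 97 and 73 bases before the start. It is a match on both strands, and these matches overlap each other. Cxcl10 holds GGGAAATTCC from base 159 and GAAAGTGAAA from base 213 before its start. Searched as GGGANNTTCC on both strands, the NF-kB motif was in 397 of 32851 RefSeq windows of the same length (1.21%) and in 6 of the 49 windows of the 42 members that matched an entry, namely those of Ccl1, Ccr3, Cxcl1, Cxcl2, Cxcl3 and Cxcl10. The ISRE, searched as GAAANNGAAA, was in 978 windows (2.98%) and in 3 member windows, those of Ccl19, Cxcl10 and Cxcl14. These matches describe the letters in the windows and say nothing of binding in these tumours. Members without an entry, among them Ccl2, Ccl4, Ccl5, Ccl24, Cxcl5 and Cxcl16, were not searched. Their absence from these lists therefore says nothing of their motifs.

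In the Miz1 tumours no chemokine gene passed the test. limma's adjusted p was 0.9998 for each of the 41 members, and 0 of 41 were called, as were 0% of the 21751 genes and loci (364 of all genes and 2 members, Ccl3 and Ccl24, had an unadjusted p under 0.05, 1.67% of all genes). Most members were nonetheless higher in knockout tumours by the mean of their log2 values, which is what higher or lower on average means below: 31 of 41 had a log2 fold change above 0, against 52.1% of all genes, and the median was 0.25 against 0.01 over all genes. The range ran from -0.66 for Cxcl14 to 1.61 for Ccl2. Among ligands 18 of 26 were higher, with a median of 0.22, and among receptors 13 of 15, with a median of 0.27. Without knockout replicate 1 the count was 21 of 41 and the median 0.00, against 52.6% and 0.02 over all genes. That library had the highest value for 25 of 41 members, against 23.8% of all genes, and floxed replicate 2 had the lowest for 17 of 41, against 27.9%.

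**Figure D1:**
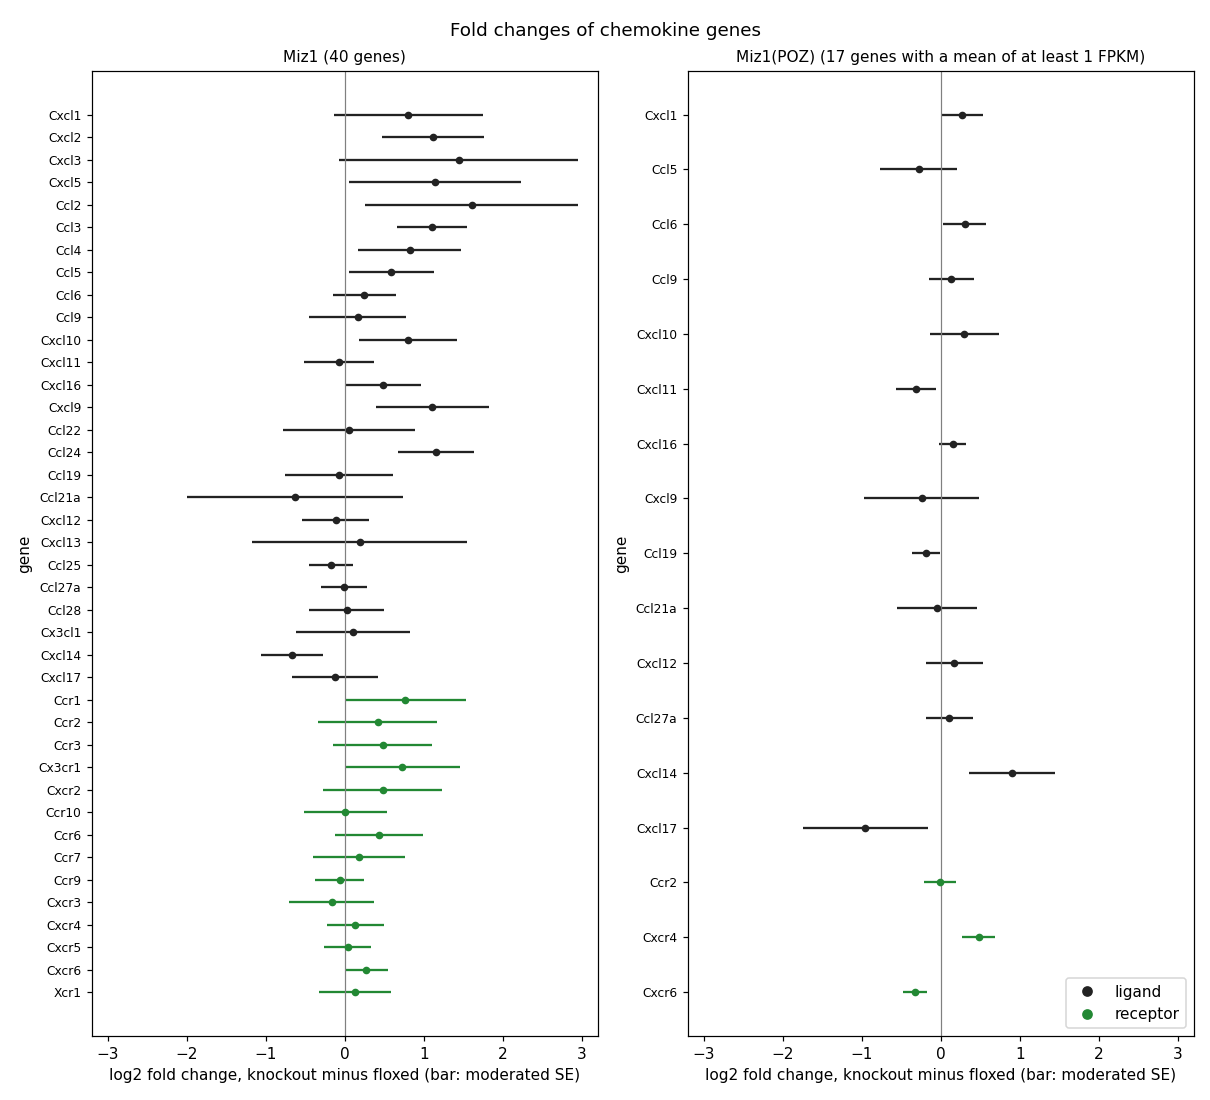
Log2 fold change (knockout minus floxed) of tested chemokine genes in the Miz1 and Miz1(POZ) tables, grouped by the cells attracted (1 member is not shown). Points are limma estimates with moderated SE bars (ligands black, receptors green), and 31 of 41 members in the Miz1 table and 9 of 18 in the Miz1(POZ) table have a fold change above 0, with no adjusted p under 0.05.

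The same-numbered libraries of the Miz1 table deviated from their group means together (correlations of 0.489, 0.339 and 0.118), so values were also read as 3 pairs. This pairing was taken from the same data and not from the labels. It is weakest for number 3, where knockout replicate 3 correlated more with floxed replicate 2 (0.282). Results by pair describe these libraries only. In the fit with replicate number as a block, 6 of 41 members (among them Ccl2, Ccl24, Cxcl1, Cxcl2 and Cxcl10) had an unadjusted p under 0.05, against 5.29% of all genes, and each of the 6 was higher in knockout tumours, against 2.52% of all genes in that direction. None of them was called, with limma's smallest adjusted p among the members at 0.908 and 0% of all genes called. The knockout library was the higher one in 3 of 3 pairs for 11 of 41 members, against 13.3% of all genes, among them Ccl2, Ccl3, Ccl4, Ccl24, Cxcl1, Cxcl2, Cxcl10, Cxcl16, Ccr1 and Cx3cr1. No member was lower in 3 of 3 pairs, against 14.3% of all genes. In the pairs numbered 2 and 3 alone, 16 of 41 members were higher in both (27.1% of all genes) and 7 were lower in both (27.6%). The groups did not overlap for 2 of 41 members, Ccl3 and Ccl24, against 5.62% of all genes, and both were higher in knockout tumours (2.57% of all genes).

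**Figure D2:**
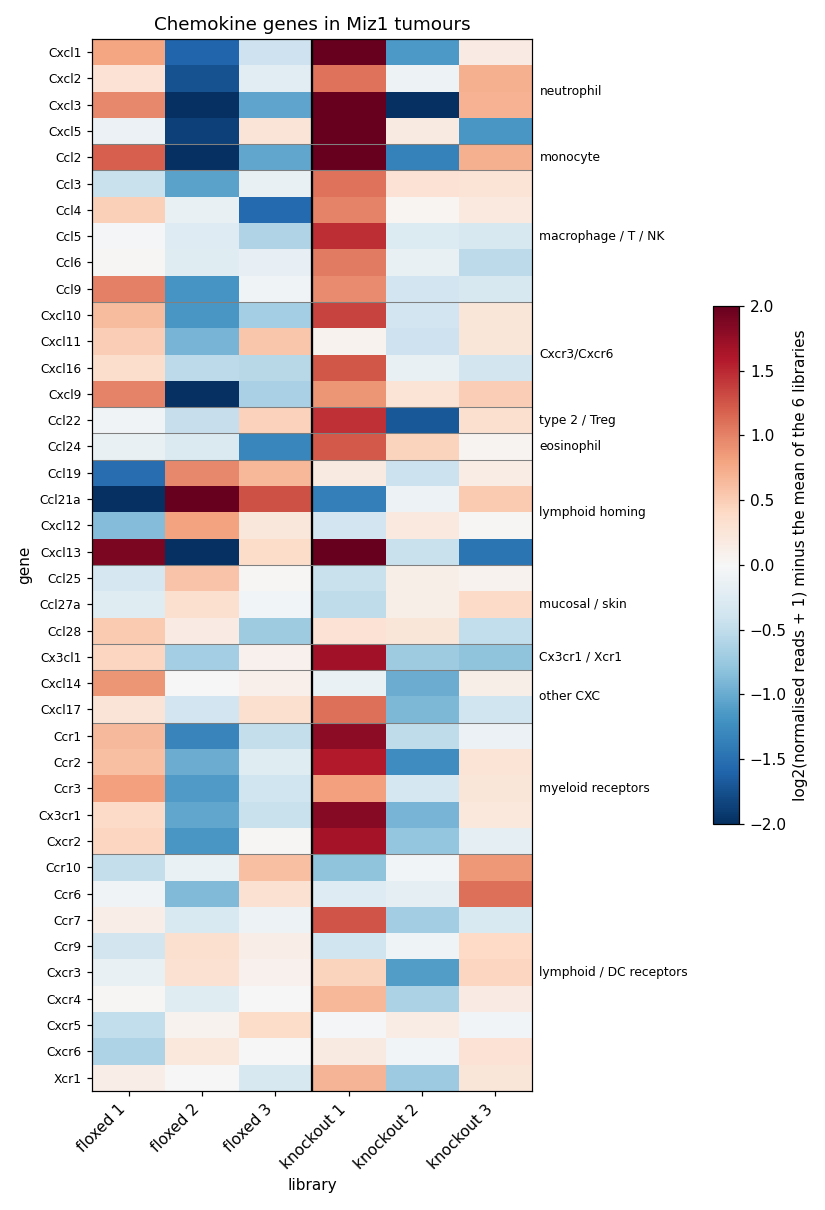
Chemokine genes in the 6 Miz1 libraries, as log2(normalised reads + 1) minus the gene's mean over the libraries, ordered by class (1 member is not shown), with colours capped at -2 and 2. Knockout replicate 1 is the highest library for 25 of 41 members, and floxed replicate 2 the lowest for 17.

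The neutrophil-attracting ligands were higher on average in the Miz1 knockout tumours, 4 of 4, with a median log2 fold change of 1.13 (0.80 to 1.44). Cxcl1, the mouse counterpart of the human GRO chemokines, had 2019.6, 389.5 and 871 normalised reads in floxed tumours and 5323, 527 and 1300.5 in knockout tumours. Each knockout library exceeded its same-numbered floxed library, but both groups spanned a wide range and overlapped, with means of 1093 ± 838 and 2384 ± 2575 (SD, n = 3). Its log2 fold change was 0.80 ± 0.94 (moderated SE), and -0.090 without knockout replicate 1. Cxcl2, the ligand also known as MIP-2, had 12.0, 2.16 and 8.08 normalised reads in floxed and 21.6, 8.87 and 16.3 in knockout tumours, and was again higher in each pair (log2 fold change 1.12 ± 0.65, and 0.53 without floxed replicate 2). These Cxcl2 values rest on 10 and 2 whole reads in floxed replicates 1 and 2, and 18, 7 and 34 in the 3 knockout libraries. Cxcl3 and Cxcl5 were about as low. Cxcl3 was read 6 and 0 times in floxed replicates 1 and 2, and 40, 0 and 12 in the 3 knockout libraries, where a count of 0 allows up to 3 reads. Cxcl5 gave 6.00, 1.08 and 8.08 normalised reads in floxed and 47.9, 7.60 and 2.40 in knockout tumours, highest in knockout replicate 1. The promoters of Cxcl1, Cxcl2 and Cxcl3 are those printed above with the shared NF-kB run.

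Ccl2, also known as MCP-1 and the main ligand of Ccr2 on inflammatory monocytes, had the largest fitted difference of the 41 members. It had 42.0, 2.16 and 8.08 normalised reads in floxed tumours and 153, 6.34 and 29.8 in knockout tumours. The knockout library was higher in each pair, by 3.65, 2.93 and 3.68 times, while the floxed libraries differed among themselves by 19.4 times from lowest to highest. The log2 fold change of 1.61 ± 1.35 (moderated SE, n = 3 against 3) was 0.49 without knockout replicate 1. The lowest values stand on few reads, with 35 and 2 whole reads in floxed replicates 1 and 2, and 128, 5 and 62 in the 3 knockout libraries. Ccr2, its receptor, had 242, 80.1 and 135 normalised reads in floxed and 480.4, 67.2 and 194 in knockout tumours, higher in pairs 1 and 3 and lower in pair 2.

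**Figure D3:**
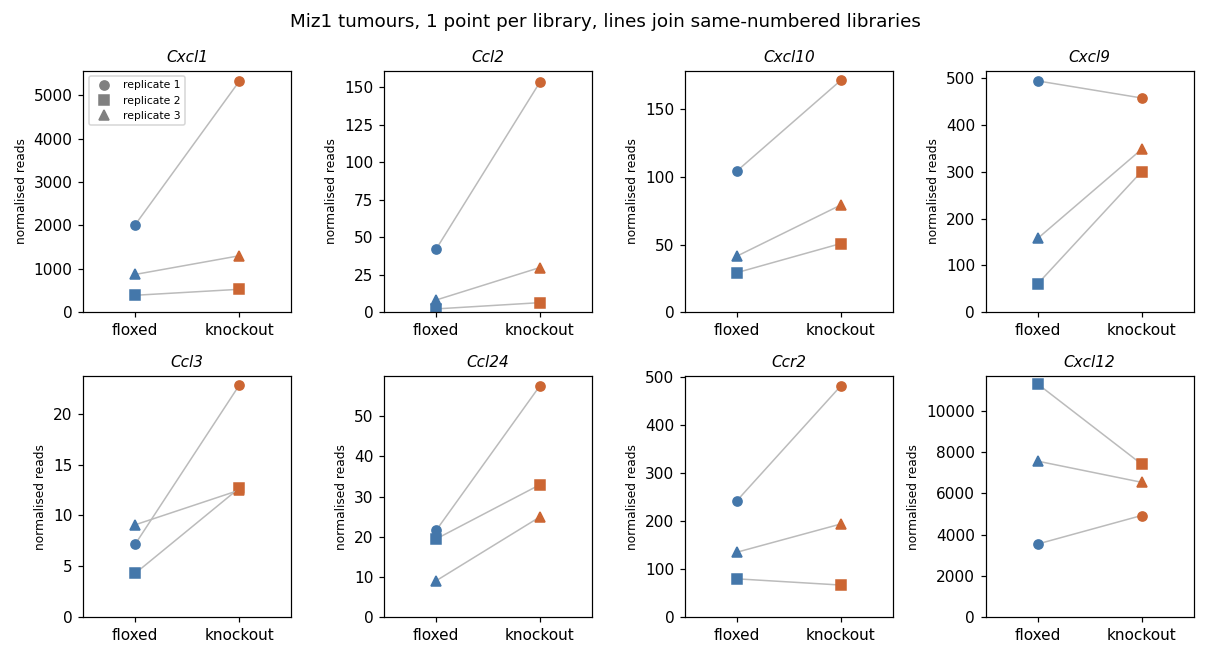
Normalised reads (axes from 0, scaled per gene) of 8 chemokine genes in Miz1 floxed (blue) and knockout (orange) tumours, 1 point per library, with lines between same-numbered libraries. Replicate 1 is the highest library of both groups for Cxcl1, Ccl2, Cxcl10 and Ccr2, while the Ccl3 and Ccl24 groups do not overlap.

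Of the ligands that reach macrophages, T cells and NK cells (Ccl3, Ccl4, Ccl5, Ccl6 and Ccl9), 5 of 5 had a fold change above 0 in the Miz1 table (median 0.59, 0.16 to 1.10). Ccl3, or MIP-1 alpha, had 7.20, 4.33 and 9.09 normalised reads in floxed tumours and 22.8, 12.7 and 12.5 in knockout tumours, means of 6.87 ± 2.40 and 16.0 ± 5.88 (SD, n = 3). All 3 knockout libraries lay above all 3 floxed libraries, and the log2 fold change was 1.10 ± 0.44. The depth behind Ccl3 was low, with 6 and 4 whole reads in floxed replicates 1 and 2, and 19, 10 and 26 in the 3 knockout libraries. Ccl4, its neighbour on chromosome 11, had 7.20, 4.33 and 1.01 against 10.8, 5.07 and 5.76 normalised reads, higher in knockout in each pair with overlapping groups. Ccl5, or RANTES, a product of T cells and NK cells, had 46.8, 40.0 and 31.3 against 135, 39.3 and 38.4 normalised reads, so that knockout replicate 1 stood above the other 5 libraries, which lay within 31.3 to 46.8. Its log2 fold change was 0.59 ± 0.53, and -0.00082 without knockout replicate 1. Ccl9, a mouse ligand of Ccr1 and one of the most abundant chemokine transcripts here, had 3122, 679 and 1470.5 against 2972, 1186 and 1241 normalised reads, with pair 1 and pair 3 lower and pair 2 higher in knockout (log2 fold change 0.16 ± 0.62). Ccl6, the mouse ligand beside it in the cluster, had 248, 207 and 217 against 501, 219 and 169.9 normalised reads, and its groups overlapped.

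The ligands of Cxcr3 and Cxcr6, which draw effector T cells and NK cells, were higher for 3 of 4 members (median 0.64). Cxcl9, the most abundant of the Cxcr3 ligands, had 494, 60.6 and 158 normalised reads in floxed and 458, 300.4 and 348 in knockout tumours. The knockout libraries lay close together, within the span of the floxed ones, and the log2 fold change was 1.11 ± 0.71. It was 1.88 without floxed replicate 1 and 0.38 without floxed replicate 2. Cxcl10, whose promoter is printed above, had 104, 29.2 and 41.4 against 171, 50.7 and 79.2 normalised reads, and each knockout library exceeded its pair (log2 fold change 0.80 ± 0.62). It was 0.33 without knockout replicate 1 and 1.32 without floxed replicate 1. Cxcl11 had 155, 57.3 and 162 against 115, 82.4 and 131 normalised reads, with overlapping groups and a log2 fold change of -0.07. C57BL/6 mice carry a frameshift in Cxcl11, so this transcript makes no working chemokine in the strain used. Cxcl16, the membrane-bound ligand of Cxcr6, had 350.2, 189 and 187 against 647, 247 and 211 normalised reads, higher in each pair, with overlapping groups. Its log2 fold change was 0.48 ± 0.48, and -0.020 without knockout replicate 1. Its receptor Cxcr6, carried by liver NKT cells and resident T cells, had 70.8, 126 and 108 against 123, 104 and 132 normalised reads. Cxcr3 was lower on average, with 8.40, 11.9 and 10.1 against 13.2, 3.80 and 13.0 and a log2 fold change of -0.17 ± 0.53.

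Ccl24, or eotaxin-2, a ligand of Ccr3 on eosinophils that alternatively activated macrophages make, was the other member whose groups did not overlap. It had 21.6, 19.5 and 9.09 normalised reads in floxed tumours and 57.5, 33.0 and 25.0 in knockout tumours, a log2 fold change of 1.16 ± 0.48. These values come from 18 and 18 whole reads in floxed replicates 1 and 2, and 48, 26 and 52 in the 3 knockout libraries. Ccr3 had 15.6, 3.25 and 6.06 against 15.6, 6.34 and 10.1 normalised reads. Ccl22, a ligand of Ccr4 on Th2 and regulatory T cells that dendritic cells make, had 6.00, 4.33 and 9.09 against 19.2, 1.27 and 8.16 normalised reads, the highest in knockout replicate 1 and the lowest in knockout replicate 2. Cx3cl1, the membrane-tethered chemokine fractalkine, had 82.8, 37.9 and 64.6 against 198, 36.8 and 34.6 normalised reads, with only knockout replicate 1 above the floxed range. Its receptor Cx3cr1, found on patrolling monocytes and resident macrophages, had 172, 63.8 and 97.0 against 468, 68.4 and 152 normalised reads and was higher in each pair.

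The homeostatic ligands were not mostly higher, with 1 of 4 fold changes above 0 and a median of -0.09. Whether the classes differ from each other was not tested. Cxcl12, the ligand of Cxcr4 that stromal cells make constitutively, had 3552, 11296 and 7562 normalised reads in floxed and 4931, 7419 and 6539.9 in knockout tumours. Its lowest library in each group was replicate 1 and its highest replicate 2, the reverse of Cxcl1, and the log2 fold change was -0.11 ± 0.43. Cxcr4 had 98.3, 82.2 and 98.0 against 155, 62.1 and 109 normalised reads. Ccl19, which draws dendritic cells and naive T cells through Ccr7, had 9.59, 58.4 and 47.5 against 33.5, 21.5 and 32.6 normalised reads. Ccl21a, the other Ccr7 ligand, had 2.40, 135 and 57.6 against 8.39, 21.5 and 33.6 normalised reads. It is one of several near-identical gene copies on chromosome 4. Multimapping reads have an entry of their own in the Miz1 table, apart from the genes. Reads shared by the copies may be missing from the value of Ccl21a, so its level is uncertain. Cxcl13, the B cell ligand of Cxcr5, had 112, 4.33 and 38.4 against 139, 21.5 and 10.1 normalised reads and was the 1 member of the class with a fold change above 0.

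Among the mucosal and skin ligands 1 of 3 had a fold change above 0. Ccl25, known from thymus and small intestine as the ligand of Ccr9, was the most abundant of them, with 421, 783 and 539 normalised reads in floxed and 391, 573 and 555 in knockout tumours (log2 fold change -0.17 ± 0.28). Ccl27a had 106, 155 and 119 against 87.5, 134 and 162 normalised reads and has a near-identical copy, so its level is uncertain too, while Ccl28 had 15.6, 11.9 and 6.06 against 13.2, 12.7 and 7.20. The remaining CXC ligands, Cxcl14 and Cxcl17, had log2 fold changes below 0. Cxcl14, a constitutive epithelial chemokine, had 146, 79.0 and 84.8 normalised reads in floxed and 71.9, 39.3 and 85.4 in knockout tumours, lower in pairs 1 and 2 and about level in pair 3, a log2 fold change of -0.66 ± 0.39. Cxcl17 had 74.4, 47.6 and 77.8 against 135, 33.0 and 47.0 normalised reads, a log2 fold change of -0.13, while its mean of untransformed values was higher in knockout tumours (71.8 against 66.6 in floxed).

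The myeloid receptors were higher for 6 of 6 members in the Miz1 table, with a median log2 fold change of 0.59 (0.42 to 0.77). Ccr1, carried by monocytes and neutrophils, had 40.8, 9.74 and 18.2 against 91.1, 17.7 and 23.5 normalised reads and was higher in each pair. Cxcr2, the neutrophil receptor of Cxcl1 and Cxcl2, had 21.6, 6.49 and 16.2 against 52.7, 8.87 and 13.9 normalised reads. The lymphocyte and dendritic cell receptors were higher for 7 of 9 members, with a median of 0.13 (-0.17 to 0.43). Of these, Ccr7, which guides T cells and mature dendritic cells to lymph nodes, had 12.0, 8.66 and 10.1 against 27.6, 6.34 and 8.64 normalised reads. The rest of this class were Ccr6 with 8.40, 4.33 and 11.1 against 7.19, 7.60 and 20.2, Ccr9 with 63.6, 104 and 90.9 against 62.3, 77.3 and 109, Ccr10 with 16.8, 21.6 and 36.4 against 13.2, 22.8 and 44.1, Cxcr5 with 34.8, 51.9 and 63.6 against 47.9, 54.5 and 47.5, and Xcr1 with 16.8, 15.1 and 12.1 against 25.2, 8.87 and 18.2 normalised reads.

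By level per kilobase of exon a few ligands led in the Miz1 tumours. The length used was that of all annotated exons of a gene joined, 1875 bases for Cxcl1 and 8176 for Cxcl12. It can exceed the length of the transcripts made, which lowers a gene's level, so the order of genes on this scale is approximate. Cxcl1 had a mean of 927 normalised reads per kilobase over the 6 libraries (208 to 2839), Cxcl12 842 (434 to 1382) and Ccl9 584 (223 to 1025). The ranges of these 3 overlap, so their order is not set beyond the spread of the libraries. In floxed tumours alone the mean was 583 for Cxcl1 and 914 for Cxcl12, and without knockout replicate 1 the means over 5 libraries were 545 and 889.7, with Cxcl12 first in both cases. By the mean over the 6 libraries, next came Ccl6 with 145, Cxcl16 with 101, Cxcl9 with 100.5, Cxcl17 with 90.9 and Ccl25 with 73.0 normalised reads per kilobase. The most abundant receptors on this scale were Cxcr6 with 57.3 and Cxcr4 with 55.7, and Ccl28 was the lowest member with 2.29. The receptor order depends on the exon length. Not divided by length, Ccr2 had more reads than Cxcr6, with means of 200 and 111 normalised reads over lengths of 6760 and 1931 bases.

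Markers of neutrophils, of macrophages and monocytes, and of T and NK cells varied between the Miz1 libraries in a similar way to the inflammatory members. In bulk tumour RNA, fewer cells of a type and less RNA per cell cannot be told apart. The 9 neutrophil markers in the table summed to 624, 173 and 148 normalised reads per kilobase in floxed and 1658, 256 and 191 in knockout tumours, 7 of 9 higher in knockout. Of all genes 52.1% were higher, the share that stands beside each such count here. The neutrophil gene Ly6g was not analysed here. The 14 macrophage and monocyte markers summed to 5302, 2039 and 3152 against 7358, 3418 and 3292, 11 of 14 higher. The 16 T and NK cell markers summed to 131, 115 and 114 against 247, 107 and 123, 11 of 16 higher. Each of these sums was highest in knockout replicate 1, the library in which most chemokine genes were highest, and second in floxed replicate 1. Other leukocyte lists did not follow this order. The 8 B and plasma cell markers summed to 1658, 2226 and 1962 against 1943, 2016 and 1759, highest in floxed replicate 2. The 8 dendritic cell markers summed to 190, 200 and 195 against 268, 162 and 179, with floxed replicate 1 the lowest floxed library. The 8 stellate cell and fibroblast markers, 8 of 8 higher in knockout on average, summed to 1322, 1125 and 1642 against 2727, 1285 and 1287. Among them Pdgfrb, Lrat and Dcn were higher in only 1 of 3 pairs. The 6 cholangiocyte and progenitor markers summed to 4101, 889.6 and 1169 against 5689.8, 799 and 822, 5 of 6 higher. The sum followed Spp1, with 6294, 1095 and 1562 against 8525, 831 and 942 normalised reads, the 1 marker with a fold change below 0 (-0.23). Krt19 and Epcam were instead lowest of the floxed libraries in replicate 1, with 2.40 and 20.4. Sox9 was higher in 3 of 3 pairs, and each of the others in only 1 of 3. Endothelial markers varied less, from 2094 to 2724 in floxed and 2157 to 2356 in knockout tumours. No row of the deposited Miz1 table was at 0 in all libraries, so none of its markers could be. The part of the marker differences in the chemokine values was not tested.

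**Figure D4:**
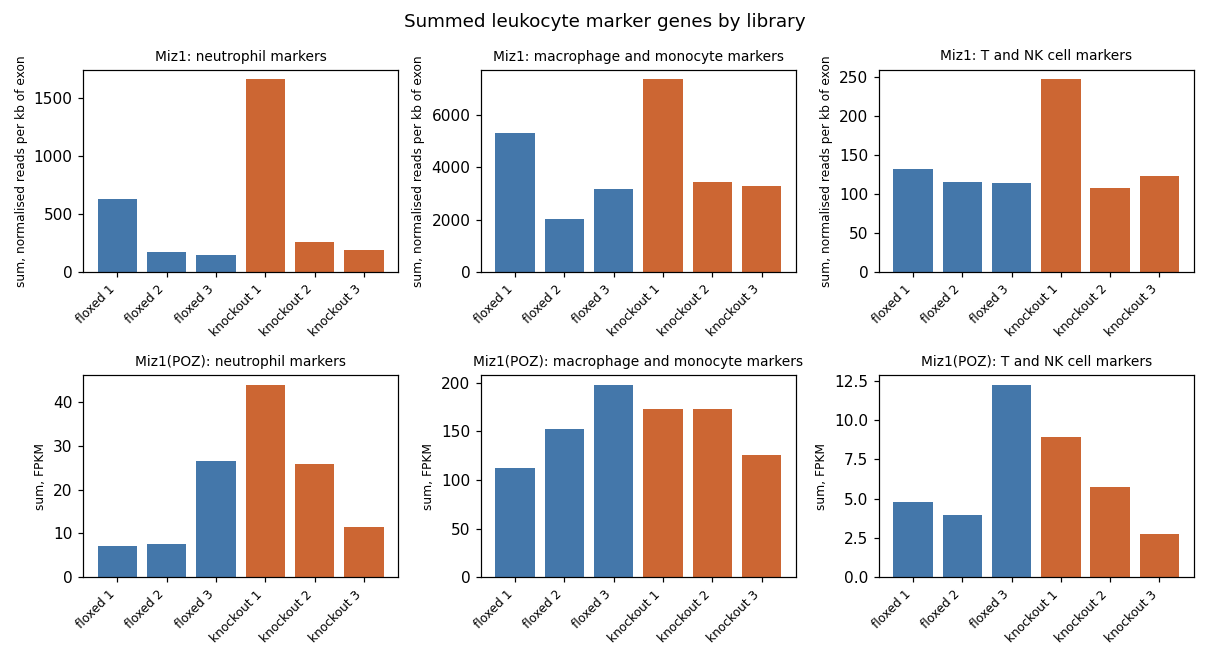
Summed levels of neutrophil, macrophage and monocyte, and T and NK cell markers as 1 bar per library (normalised reads per kilobase of exon for Miz1, FPKM for Miz1(POZ), floxed in blue and knockout in orange). Knockout replicate 1 of the Miz1 table has the highest sum in all 3 lists, and floxed replicate 3 of the Miz1(POZ) table has the highest macrophage and T and NK cell sums of that table.

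In the Miz1(POZ) tumours most chemokine transcripts were too low to test, and none that could be tested passed. 0 of 18 members were called, as were 0% of 11201 genes tested, and limma's smallest adjusted p among the members was 0.594, for Cxcr4. At an unadjusted p under 0.05 stood 0 of 18 members, against 976 genes (8.71%). A log2 fold change above 0 was found for 9 of 18 members, against 55.7% of all genes, with medians of 0.05 and 0.03. The groups overlapped for each of the 18 members, whereas they did not overlap for 15% of all genes. Floxed replicate 3 had the highest value for 9 of the 18 members, against 17.6% of all genes. Without that library 12 of 18 members had a fold change above 0, against 51.3% of all genes.

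**Figure D5:**
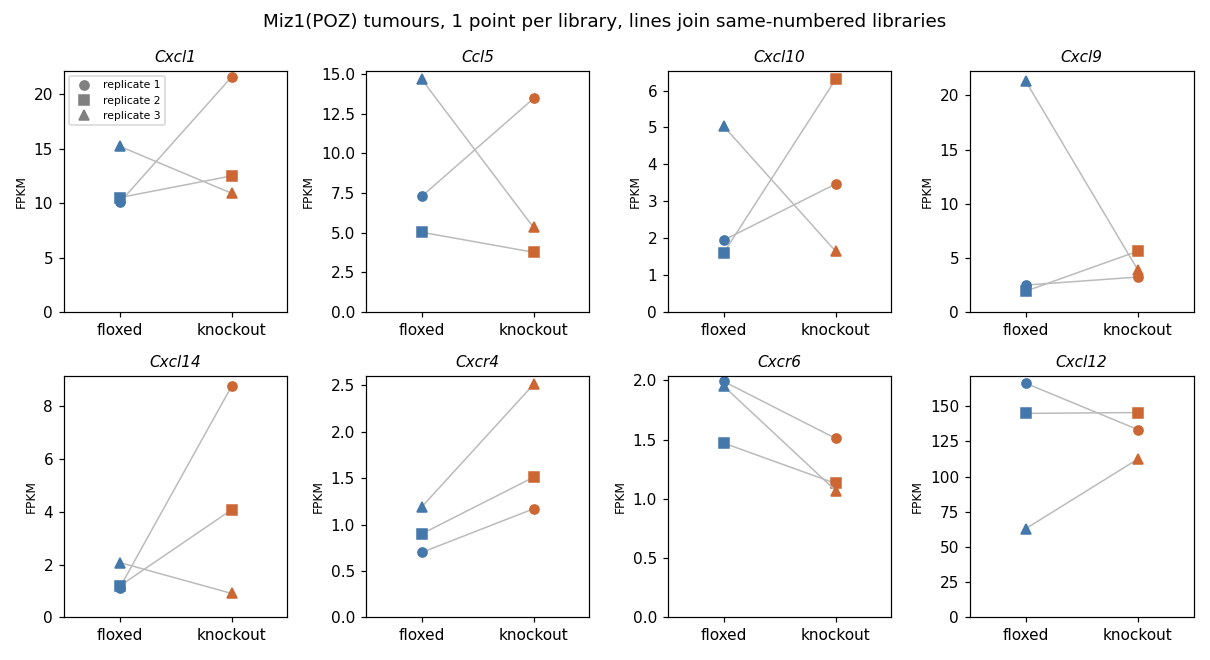
FPKM (axes from 0, scaled per gene) of 8 chemokine genes in Miz1(POZ) floxed (blue) and knockout (orange) tumours, 1 point per library, with lines between same-numbered libraries, whose numbers were not taken as pairs. Floxed replicate 3 stands highest for Cxcl9 and Ccl5, and the groups of Cxcr4 and of Cxcr6 overlap only slightly.

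Cxcl1 was the only tested neutrophil ligand of the Miz1(POZ) table, with 10.1, 10.5 and 15.2 FPKM in floxed and 21.6, 12.5 and 10.9 in knockout tumours. Knockout replicate 1 was its highest library, and the other 2 knockout libraries lay inside the floxed range (log2 fold change 0.27 ± 0.27). The ligands of macrophages, T cells and NK cells were led by Ccl9, with 10.6, 15.0 and 24.2 against 16.0, 15.2 and 21.6 FPKM, whose groups overlapped. Ccl6 had 3.75, 5.30 and 6.90 against 9.93, 5.38 and 5.35 FPKM, highest in knockout replicate 1. Ccl5 had 7.29, 5.03 and 14.7 against 13.4, 3.77 and 5.33 FPKM, with its highest values in floxed replicate 3 and knockout replicate 1, and a log2 fold change of -0.28 ± 0.48.

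Among the Cxcr3 ligands of the Miz1(POZ) table, floxed replicate 3 was the highest library for Cxcl9 and Cxcl11, and knockout replicate 2 for Cxcl10. Cxcl9 had 2.50, 1.94 and 21.3 FPKM in floxed and 3.24, 5.62 and 3.93 in knockout tumours. Its log2 fold change was -0.24 ± 0.73, and 0.69 without floxed replicate 3, where each of the 3 knockout libraries lay above the remaining 2 floxed ones. Cxcl10 had 1.95, 1.61 and 5.03 against 3.47, 6.30 and 1.65 FPKM, and Cxcl11 1.04, 0.70 and 2.13 against 0.61, 1.10 and 0.68. Cxcl16 had 2.60, 3.22 and 4.57 against 4.14, 3.62 and 3.87 FPKM, with the floxed values on either side of the knockout ones. Floxed replicate 3 also had the highest summed T and NK cell markers (4.79, 3.98 and 12.3 FPKM in floxed, 8.90, 5.77 and 2.75 in knockout) and macrophage markers (112, 152 and 198 against 173, 173 and 125). The neutrophil markers summed to 7.12, 7.48 and 26.5 FPKM in floxed and 44.0, 25.9 and 11.5 in knockout tumours, 3 of 3 tested members higher in knockout. Of the T and NK cell markers 0 of 15 were high enough to test, and 8 of 11 tested macrophage markers were higher in knockout. Of all genes tested 55.7% were higher. The part of these markers in the chemokine values was not tested.

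Cxcl12 was the most abundant chemokine transcript of the Miz1(POZ) tumours by FPKM, a scale per length, with 166, 145 and 63.0 in floxed and 133, 145 and 112 in knockout tumours. Its receptor Cxcr4, found on most leukocytes, had 0.70, 0.90 and 1.19 FPKM in floxed and 1.17, 1.51 and 2.51 in knockout tumours. The groups overlapped by 1 library (log2 fold change 0.48 ± 0.21, moderated SE), and the knockout library was higher in 3 of 3 same-numbered comparisons. Cxcr6 had 1.99, 1.47 and 1.95 against 1.51, 1.13 and 1.07 FPKM and was lower in 3 of 3 (log2 fold change -0.33 ± 0.15). Such patterns were shown by 18.9% and 13.1% of all genes, higher and lower respectively. The numbers of this table were not taken as pairs, so matching by number is arbitrary here. Ccr2 had 1.22, 0.65 and 1.70 against 0.97, 1.21 and 1.21 FPKM, with overlapping groups. Cxcl14 had the largest difference upwards, with 1.13, 1.19 and 2.08 FPKM in floxed and 8.76, 4.08 and 0.91 in knockout tumours, where knockout replicate 3 lay below all floxed libraries (log2 fold change 0.91 ± 0.54). Without knockout replicate 1 it was 0.36, and without knockout replicate 3 it was 1.53. Cxcl17 had the largest difference downwards, with 0.85, 0 and 9.55 against 0.17, 0.69 and 0.36 FPKM, and its fold change of -0.95 ± 0.79 became 0.032 without floxed replicate 3. Ccl27a had 9.34, 5.34 and 3.42 against 6.28, 6.99 and 5.27 FPKM, Ccl19 1.52, 1.73 and 2.05 against 2.00, 1.19 and 1.17, and Ccl21a, uncertain for its near-identical copies, 3.62, 1.49 and 0.51 against 3.06, 1.75 and 0.40.

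Of the other 40 members of the Miz1(POZ) table, Ccl26, Cxcl15 and Cxcl3 were listed at 0 in all 6 libraries and the rest had means under 1 FPKM. The highest single value among them was 3.00 FPKM, for Xcl1, a product of NK cells and CD8 T cells, with 0, 0 and 3.00 FPKM in floxed and 0, 1.55 and 0.22 in knockout tumours. Ccl2 had 0.52, 0.34 and 0.63 FPKM in floxed and 1.25, 0.89 and 0.22 in knockout tumours, Cxcl2 0, 0 and 0.17 against 0.21, 0.17 and 0.31, Ccl8 0.50, 0 and 2.43 against 0, 0.25 and 0.44, and Cxcl13 0.25, 0.36 and 2.31 against 0.79, 0.32 and 0.21. Monocyte, type 2, eosinophil, and Cx3cr1 or Xcr1 ligands had 0 tested members in this table. Ccl2, Cxcl2, Ccl3 and Ccl24, which had log2 fold changes above 1 in the Miz1 table, were among the untested members.

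The tables were normalised separately and share no library, so each knockout was compared with its own floxed group and directions were set side by side. Of the 18 members tested in both tables, 10 had the same direction (55.6%), against 54.0% of 10842 genes, a share near the background. The log2 fold changes of Cxcl1, Cxcl10, Cxcl16, Ccl6, Ccl9 and Cxcr4 were above 0 in both knockouts, and those of Ccl19, Ccl21a, Cxcl11 and Cxcl17 below 0 in both. For Cxcl1 the log2 fold changes were 0.80 ± 0.94 in the Miz1 table and 0.27 ± 0.27 in the Miz1(POZ) table. For Cxcl9 they were 1.11 ± 0.71 and -0.24 ± 0.73, and for Cxcl14 -0.66 ± 0.39 and 0.91 ± 0.54. Whether the 2 knockouts differ in any of these effects was not tested.

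The genes that induce chemokines and those that act around their receptors did not pass the test either. In Miz1 tumours 12 of 16 tested inducers were higher and 4 lower, and in Miz1(POZ) tumours 12 of 14 were higher and 2 lower, with 0 called in each. Their median log2 fold changes were 0.06 and 0.09. Of all genes tested 52.1% and 55.7% were higher, the shares that stand beside these counts and those of the genes around the receptors. Tnf, the cytokine in the series' title, had 9.59, 2.16 and 7.07 normalised reads in Miz1 floxed and 21.6, 3.80 and 9.60 in knockout tumours (log2 fold change 0.70 ± 0.74), and was too low to test in the Miz1(POZ) table. Il1b, which induces Cxcl1 and Ccl2, had 51.6, 36.8 and 21.2 against 122, 40.6 and 38.9 normalised reads in the Miz1 table. Among Miz1(POZ) tumours Il1b had 0.28, 0.67 and 0.48 FPKM in floxed and 2.85, 1.36 and 0.84 in knockout tumours. Its groups did not overlap, as was so for 15% of all genes tested. The log2 fold change of Il1b was 0.80 ± 0.28, with a limma adjusted p of 0.497. Nfkbia, the inhibitor and target of NF-kB, had 1030.2, 1659 and 1169.5 against 1320.2, 693 and 945 normalised reads in the Miz1 table and a log2 fold change of 0.03 in the Miz1(POZ) table. Cebpb, a factor of inflammatory gene induction, was lower in each Miz1 knockout library than in its pair, with 788, 2399 and 1541 against 556, 954 and 836 normalised reads (log2 fold change -0.90 ± 0.43). Ifng, the inducer of Cxcl9 and Cxcl10, was listed at 0 in all Miz1(POZ) libraries and was not analysed here in the Miz1 table. Of the genes around the receptors (decoy receptors, G protein signalling, receptor kinases and related genes), 12 of 24 were higher in the Miz1 table and 10 of 19 in the Miz1(POZ) table, 0 called in each. Those with the smallest p were Ackr2, Pik3cg and Adam10 in the Miz1 table, with log2 fold changes of -0.43, 0.47 and 0.28. Their counterparts among Miz1(POZ) tumours were Grk6, a kinase that desensitises chemokine receptors, Rgs2 and Pf4, with -0.25, 0.75 and 0.44. Next to Il1b, the inducers of smallest p there were the TNF receptor gene Tnfrsf1a, with 26.4, 31.0 and 35.2 FPKM in floxed and 43.5, 40.8 and 32.3 in knockout tumours, and Il1a, with 1.70, 2.23 and 1.51 against 2.58, 2.74 and 1.84, and the groups of both overlapped.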

How the data were processed

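Liver tumour RNA of 12 libraries was measured by sequencing (TruSeq kit, 1 ug of RNA, per the labels' protocols). RSEM 1.1.17, Bowtie2 2.2.6 and the mouse build mm10 are among the names in the submitters' processing notes, which give them no role or order. The deposited Miz1 table holds a signal, reads divided by 1 factor per library. Recovered reads were whole (within 0.01) for 100% of the values of 5 libraries, rounded, and the factor of Miz1 floxed replicate 3 could not be recovered. The 4 entries of that table for reads not assigned to a gene (unmapped, multimapping, no feature and ambiguous) were left out of every step. They held 38.0% to 50.8% of a column's total. The 1426 loci named only by an XLOC number were kept. The deposited Miz1(POZ) table holds FPKM values with 2 decimals, and RPKM could not be told apart from it. The treatment of strand, and in the Miz1(POZ) table of reads that map to several places, was not given in the sources used here.

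Values were taken as log2(value + 1), rows with a mean of at least 1 were kept, and knockout was compared with floxed within each table by limma 3.58.1 (R 4.3.3, two-sided moderated test with a mean trend, n = 3 against 3), with Benjamini-Hochberg adjustment over all genes tested and a threshold of 0.05. Fold changes on this scale understate those of low genes. Alternatives were pseudocounts of 0.1 and 5, no filter and a mean of 5, quantile and median-ratio scaling, robust moderation, a replicate block, each library left out, and edgeR 4.0.16 and DESeq2 1.42.0 on the reads of the 5 libraries. Leaving out the pair numbered 1 (Miz1) or 3 (Miz1(POZ)) was chosen after seeing the data. The fits were tested on simulated data.

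Deviations of same-numbered libraries from their group means correlated at 0.489, 0.339 and 0.118 in the Miz1 table, each over 0.1, so its numbers were taken as pairs from the data, although the labels do not say what a number marks and knockout replicate 3 correlated more with floxed replicate 2 (0.282).

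The members and lists were chosen with earlier results of these data known. Genes named are the 8 members of smallest p, the highest member of each class, Cxcl1, Cxcl2, Ccl2, Ccl5, Cxcl9, Cxcl10, Cxcl12, Cxcl16, Ccr2 and Cxcr4, and, of each of the lists of inducers and of genes around the receptors, those of smallest p with Tnf, Il1b, Ifng and Nfkbia. Results of 1 member are not reported here. Other members are printed to account for the whole family, and their values were seen first. Positions are from GENCODE M21 (GRCm38) and promoters from RefSeq (GRCm38.p6).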

Additional observations from a re-analysis of the deposited data

How the results depend on the processing

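The count of members called was 0 in both tables under every alternative run. Over all genes of the Miz1 table it was 0 except with DESeq2 on recovered reads, which called 5 genes, none a member (unadjusted p under 0.05 for 321 genes, and for 195 with edgeR, which called 0). In the Miz1(POZ) table it was 0 except 57 without the pair numbered 3 and 0 to 4 with each library left out: 1 without floxed replicate 1, 2 without floxed replicate 2 and 4 without floxed replicate 3. With the replicate block both counts stayed 0, with 1150 genes and 6 members of the Miz1 table, and 1076 genes (9.61%) and 1 member (Cxcr4) of the Miz1(POZ) table, at an unadjusted p under 0.05, and it changed no call. In the Miz1(POZ) table same-numbered libraries correlated at -0.0930, 0.230 and 0.175, so their numbers were not taken as pairs.

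The log2 fold changes of named members turned direction in these cases, and the cause was not tested. In the Miz1 table Ccl22 was -0.063 with a pseudocount of 0.1, Ccl9 was -0.062 with edgeR and -0.077 with DESeq2, and without the pair numbered 1 Ccl22 was -0.69, Cx3cl1 -0.46 and Cxcr4 -0.12. With each library left out Ccl22 ranged from -0.66 to 0.91, Ccl25 from -0.38 to 0.066, Ccl5 from -0.00082 to 0.90, Ccl9 from -0.39 to 0.71, Ccr2 from -0.27 to 1.14, Cx3cl1 from -0.71 to 0.53, Cxcl1 from -0.090 to 1.58, Cxcl12 from -0.57 to 0.26, Cxcl16 from -0.020 to 0.79 and Cxcr4 from -0.16 to 0.49. In the Miz1(POZ) table Ccr2 was 0.014 with a pseudocount of 0.1 and 0.0068 with quantile scaling, and without the pair numbered 3 Ccl27a was -0.086, Ccl5 0.23, Ccr2 0.12, Cxcl12 -0.15, Cxcl17 0.048 and Cxcl9 0.72. With each library left out Ccl27a ranged from -0.18 to 0.43, Ccl5 from -0.75 to 0.10, Ccl9 from -0.13 to 0.43, Ccr2 from -0.20 to 0.15, Cxcl1 from -0.0065 to 0.45, Cxcl10 from -0.063 to 0.67, Cxcl12 from -0.26 to 0.44, Cxcl17 from -1.67 to 0.032 and Cxcl9 from -0.77 to 0.69. Other named members kept their direction but moved by over 1.5 times with a library left out: in the Miz1 table Ccl2 (0.49 to 2.68), Ccl4 (0.25 to 1.26), Cxcl2 (0.53 to 1.55), Cxcl9 (0.38 to 1.88), Cxcl10 (0.33 to 1.32), Cxcl14 (-0.89 to -0.34) and Cxcr6 (0.035 to 0.44), and in the Miz1(POZ) table Ccl6 (0.042 to 0.48), Ccl19 (-0.34 to -0.11), Cxcl11 (-0.50 to -0.062), Cxcl14 (0.36 to 1.53), Cxcl16 (0.0071 to 0.32) and Cxcr4 (0.28 to 0.63). The rarest ligands rest on few reads in the Miz1 table, and 40 of 58 members were below the filter in the Miz1(POZ) table.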
